A study of Mus musculus with 5 samples.

Results

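The urea cycle enzymes were followed in the liver of mice that carry the eyeless mutation of Pitx3. The 5 enzymes of the cycle, Cps1, Otc, Ass1, Asl and Arg1, were taken by gene symbol, and 4 of them had a probe in the platform's annotation. They were Cps1 with 1 probe, Ass1 with 3, Asl with 1 and Arg1 with 2, in all 7 of 20355 probes and 4 of 9930 named genes. Otc was not analysed here.

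The mutant group held 5 male animals, 17 weeks old and homozygous for the allele (Pitx3eyl-/-), each hybridised on its own 2-colour cDNA array. The other channel of every array carried 1 RNA pool from wild-type mice, whose age and sex were not given. The pool is described as coming from 4 animals in the sample descriptions and from 6 in the labelling protocol. Mutant RNA was in Cy5 on replicates 1, 2 and 4 and in Cy3 on replicates 3 and 5. The values are log2 ratios, and positive ones are read as higher in the mutant. That direction is likely and not known, because no source used here states it.

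The urea cycle turns toxic ammonia from amino acid breakdown into urea, and the liver is the only organ known to run the whole of it at a high rate. Carbamoyl phosphate synthetase (Cps1) and ornithine transcarbamylase (Otc) work in the mitochondria. Argininosuccinate synthetase (Ass1), argininosuccinate lyase (Asl) and arginase (Arg1) follow in the cytosol. The enzymes are most abundant in hepatocytes around the portal vein, and their messenger RNAs rise together with dietary protein, glucagon and glucocorticoids. The comparison asks whether their liver messenger RNA differs between the mutant line and wild type.

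Each array measured between 13576 and 15892 probes, and the array medians lay between -0.19 and 0.23. Correlations over all probes between pairs of arrays lay between -0.26 and 0.11, and were below 0 for all 6 pairs of opposite dye orientation (-0.26 to -0.05) and above 0 for 3 of 4 pairs of the same orientation (-0.02 to 0.11). Of the 16 secreted hepatocyte genes with a probe, out of 20 listed, 15 were measured often enough for the test. For markers of 7 other cell types this held for 22 of 36. A ratio carries no level, so the liver label could not be checked against the abundance of its markers. In whole liver, fewer hepatocytes and less RNA per hepatocyte cannot be told apart. The number of arrays, 5, limits the precision.

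Ass1, Asl and Arg1 all had mean log2 ratios below 0 in the mutant livers, that is, mutant under pool, and none of the differences passed the test over all genes. The log2 ratios from limma, averaged over dye orientations, were -0.82 ± 0.34 for Ass1, -0.68 ± 0.27 for Asl and -0.50 ± 0.33 for Arg1 (SE, 5 arrays). These correspond to 0.568, 0.624 and 0.708 times the pool. The Ass1 value depends in part on 1 probe that had values on 3 arrays only. Without that probe it was -0.59, a choice made after seeing the data. For each of the 3 enzymes, with all probes, limma gave an adjusted p of 0.998. It called 0 of 6706 genes (0% called) and 0 of 11300 probes (0%) in this comparison. At an unadjusted p under 0.05 there were 264 genes (3.94%) and 470 probes (4.16%), and the genes on the lower side made up 1.61%. Asl was among those genes, at an unadjusted p of 0.0474, while Ass1 stood at 0.0563 and Arg1 at 0.188. All 3 coefficients lay below 0, as did 46.3% of all genes tested, and their median was -0.68 against 0.03 over all genes.

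**Figure D1:**
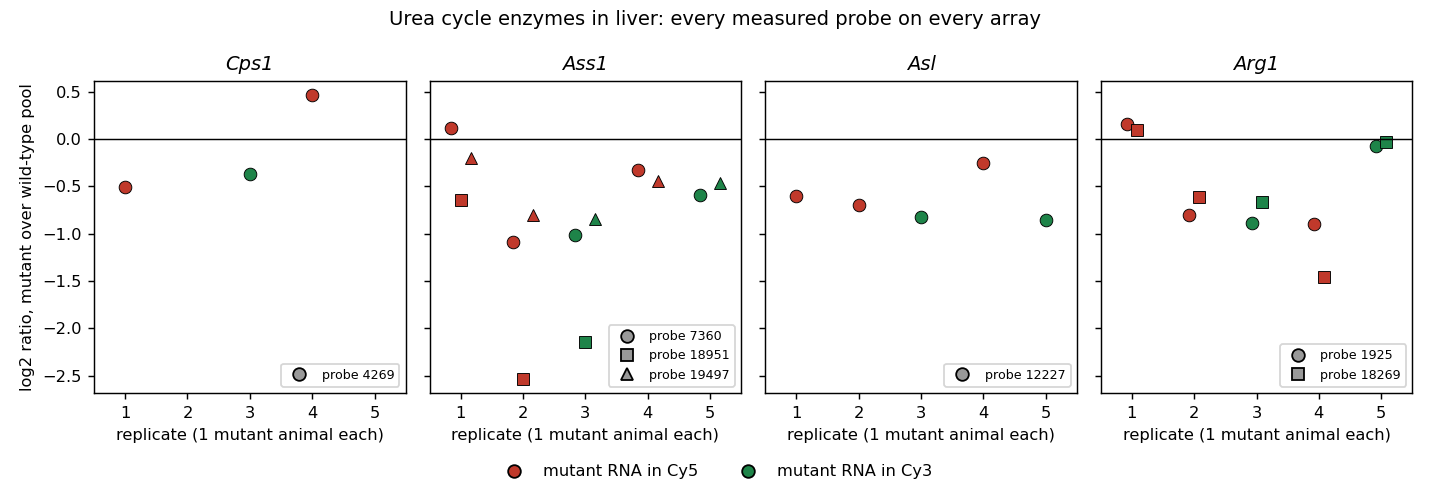
Log2 ratio of mutant over wild-type pool (vertical axis) for each measured probe of Cps1, Ass1, Asl and Arg1 on each of the 5 arrays (horizontal axis, replicate number). Symbols mark probes and colours mark the dye of the mutant RNA. All 5 values of Asl lie between -0.86 and -0.26, and the pairs of Arg1 values lie close together on every array except replicate 4.

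Cps1 makes carbamoyl phosphate, the first and rate-controlling step of the cycle, and is one of the most abundant proteins of liver mitochondria. Its probe (4269) was measured on 3 arrays, with log2 ratios of -0.51, -0.37 and 0.46 for replicates 1, 3 and 4. The arrays thus lay on both sides of 0, and replicates 2 and 5 had no value. All 3 values lay at the array's constant plus the log2 of a ratio of small whole numbers (up to 20), a form shared by 20.1% to 29.6% of the measured values of an array. With 3 arrays Cps1 did not enter the test. When 3 arrays sufficed, its coefficient was -0.20 ± 0.53 (SE, adjusted p 0.998 from limma over 8258 genes). These arrays cannot place Cps1 with or apart from the cytosolic enzymes.

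Ass1 joins citrulline and aspartate and so brings in the second nitrogen of urea. Its upstream region is shown because Ass1 was the only measured enzyme in the promoter table used. The 250 bases before the start lie at chr2:31470020-31470269 on the plus strand (RefSeq, GRCm38.p6), and capitals mark motif matches.
Ass1: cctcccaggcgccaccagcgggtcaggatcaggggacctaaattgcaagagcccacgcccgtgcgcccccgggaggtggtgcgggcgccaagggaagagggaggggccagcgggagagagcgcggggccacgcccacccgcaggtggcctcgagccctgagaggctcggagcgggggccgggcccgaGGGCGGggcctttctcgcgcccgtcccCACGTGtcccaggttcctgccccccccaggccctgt
The region is rich in G and C, at 75.6% against a median of 52.4% over 32851 regions of the same length. On either strand, GGGCGG, the core of the GC box read by Sp factors, matched once at 63 to 58 bases before the start. CACGTG, an E-box read by basic helix-loop-helix factors, matched once at 36 to 31 bases before it. The motifs do not overlap. A match to GGGCGG was found in 32.7% of all these regions. The E-box core was found in 6.02% of them. The letters TATAA, present in 22.8% of regions, were not in this window. The letters CCAAT, present in 33.8%, were not in it either.

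The first Ass1 probe (7360) gave log2 ratios of 0.11, -1.08, -1.02, -0.33 and -0.59 on replicates 1 to 5. It was thus below 0 on 4 of 5 arrays, and lowest on replicates 2 and 3, which differ in dye orientation. The third probe (19497) gave -0.20, -0.80, -0.85, -0.44 and -0.46, below 0 on all 5 arrays with the same pair lowest. Among 6364 probes measured on all 5 arrays, 2.34% were below 0 on all of them. Their coefficients were -0.62 ± 0.31 and -0.57 ± 0.27 (SE, 5 arrays; adjusted p 0.999 from limma for each).

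The second Ass1 probe (18951) had -0.64, -2.53 and -2.15 for replicates 1 to 3. It was lower than both other probes on each of these arrays, by 0.44 to 1.73. On replicate 4 it had no value, and on replicate 5 it held -16.69, which was read as a code for an unmeasurable spot and set to missing. The mean of Ass1 on replicates 4 and 5 therefore rests on the other 2 probes. Averaged per array, Ass1 stood at -0.24, -1.47, -1.34, -0.39 and -0.53 on replicates 1 to 5, below 0 on every array. On replicate 1 the other 2 probes averaged -0.04, close to 0 and above that array's median of -0.19. From the 2 probes with values on all arrays, the coefficient was -0.59 ± 0.23 (SE), a choice made after seeing the data. With the code kept as a value it was -2.16 ± 0.74.

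Asl splits argininosuccinate into arginine and fumarate. Its probe (12227) gave -0.60, -0.70, -0.82, -0.26 and -0.86 on replicates 1 to 5. Asl was below 0 in all 5 animals, with replicate 4 nearest to 0. The pool is 1 sample, so there is no spread of wild-type values to set beside them. Among 4545 genes measured on all 5 arrays, 2.13% were below 0 on all of them. Both measured members with this pattern, Asl and the mean of Ass1, are described here from a list chosen with earlier results known. The SD of Asl between arrays, each of 1 animal, was 0.24, and 4.29% of genes had a smaller one, where the median gene had 0.80. Within its array, Asl ranked between percentile 13.1 of the measured probes on replicate 5 and percentile 37.0 on replicate 1. The exact two-sided sign-flip test over the arrays gave p = 0.0625, the smallest that 5 arrays allow, so this test could not have passed 0.05. Its values on replicates 3 and 5 lay at ratios of small whole numbers, and without such values Asl left the test. Ass1 probe 19497 held such values on replicates 2 and 3, and Ass1 probe 18951 on replicate 3. Arg1 probe 1925 held such a value on replicate 3, and Arg1 probe 18269 on replicates 1 and 2. Without them Ass1 probe 19497 and Arg1 probe 18269 also left the test, and Arg1 probe 1925 had a coefficient of -0.29. The gene means then gave -0.79 for Ass1 and -0.48 for Arg1.

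Arg1 releases urea from arginine and restores ornithine. The first probe (1925) gave 0.16, -0.80, -0.88, -0.90 and -0.07 on replicates 1 to 5, and the second (18269) gave 0.09, -0.61, -0.66, -1.46 and -0.03. Both probes placed replicates 2, 3 and 4 low and replicates 1 and 5 within 0.2 of the pool's value. The coefficients of the probes were -0.49 ± 0.32 and -0.50 ± 0.35 (SE, adjusted p 0.999 from limma for each). The SD of the Arg1 mean between arrays was 0.54, more than that of Asl, and its mean of -0.52 was smaller than this spread. The exact two-sided sign-flip test gave p = 0.188 for Arg1 and 0.0625 for the mean of Ass1.

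For Arg1 and for 1 pair of the 3 Ass1 probes, probes of an enzyme lay close to each other. The root mean square difference over the 5 arrays was 0.29 between the Arg1 probes and 0.22 between the Ass1 probes 7360 and 19497, in log2 units. The signs of the probes coincided on 5 of 5 arrays for Arg1 and on 4 of 5 for that Ass1 pair. Among 625 pairs of probes with 1 shared symbol, measured on all arrays, the median difference was 1.18. Smaller differences than that of Arg1 were found in 5.76% of these pairs, and smaller ones than that of Ass1 in 3.84%. Ass1 probe 18951 differed more, by 1.15 from probe 7360 and by 1.27 from probe 19497 over the 3 arrays they share. These differences exceed the SD of 0.57 of the Ass1 mean between arrays, in which probe 18951 enters on replicates 1 to 3 only. From the other 2 probes that SD was 0.38. The differences of the Arg1 pair and of Ass1 probes 7360 and 19497 lie under the SDs of their enzymes. Whether probes of a gene were spotted from the same clone is not given in the sources used here.

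**Figure D2:**
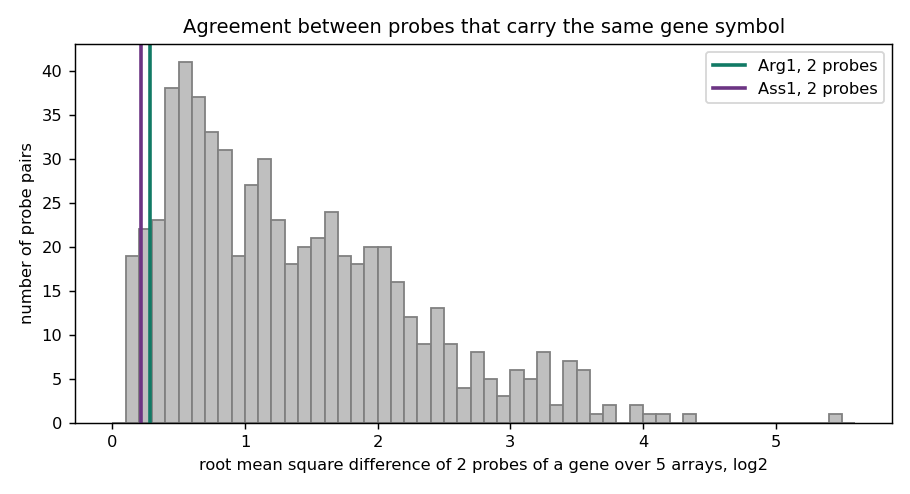
Histogram of the root mean square log2 difference over 5 arrays (horizontal axis) for 625 pairs of probes that carry the same gene symbol (vertical axis, number of pairs). The vertical lines mark the Arg1 pair at 0.29 and the Ass1 pair of probes 7360 and 19497 at 0.22, both in the left tail of a distribution with a median of 1.18.

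The order of the 3 cytosolic enzymes changed from animal to animal. On replicates 2 and 3 Asl and Arg1 differed by 0.01 and 0.05, with the mean of Ass1 lower than Asl by 0.78 and 0.51. These Ass1 gaps rest largely on probe 18951, which had values on replicates 1 to 3 only. From the other 2 probes Ass1 was lower than Asl by 0.25 and 0.11 there. On replicate 1 Ass1 was higher than Asl, by 0.36 from its mean and by 0.56 from these 2 probes. On replicate 4 Arg1 was the lowest, 0.92 under Asl. On replicates 1 and 5 it was the highest, with Asl lower by 0.73 and 0.80. The mean differences were -0.15 ± 0.50 between Ass1 and Asl, -0.28 ± 0.61 between Ass1 and Arg1 and -0.13 ± 0.70 between Asl and Arg1 (SD, 5 arrays). Both differences with Ass1 include probe 18951 on replicates 1 to 3 only, so their size and sign depend on it in part. Exact two-sided sign-flip tests of these 3 pairs gave p between 0.375 and 0.875, and adjusted p between 0.844 and 0.875. The spread leaves room for differences in either direction.

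Mean ratios of the enzymes lay below 0 in both dye orientations. Means with the mutant in Cy5 and in Cy3 were -0.70 and -0.93 for Ass1, -0.52 and -0.84 for Asl and -0.59 and -0.41 for Arg1. The dye coefficient, which is the Cy5 mean less the Cy3 mean, divided by 2, was 0.12, 0.16 and -0.09, with unadjusted p of 0.746, 0.571 and 0.803 in limma. Over all genes 7.1% had an unadjusted p under 0.05 for it, and limma called 0%. Had the swapped arrays not been turned before deposit, the dye coefficient would be the mutant coefficient of each enzyme.

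Secreted hepatocyte genes had their highest median on replicate 1. The 16 secreted hepatocyte genes, such as albumin, transthyretin and fibrinogen chains, had a median log2 ratio of 0.37 on replicate 1, with 2 of 16 below 0. On replicates 2 to 5 their medians were -0.21, -0.19, 0.02 and 0.02. The all-gene medians were -0.19, -0.04, -0.02, 0.11 and 0.21 on replicates 1 to 5, so the lowest of them was on replicate 1. Measured from the median of the secreted hepatocyte genes on the same array, Ass1, Asl and Arg1 were each lower on 5 of 5 arrays, where 2.88% of 4545 genes were. Cps1 was lower on 2 of 3 arrays and 0.44 higher on replicate 4. Arg1 then lay 0.24 below on replicate 1 and 0.07 below on replicate 5, and Asl 0.97 and 0.87 below. On replicate 1 Arg1 lay at 0.13, the only gene mean above 0 among Ass1, Asl and Arg1. With the arrays set on these genes, a choice made after seeing the data, no enzyme was called by limma.

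**Figure D3:**
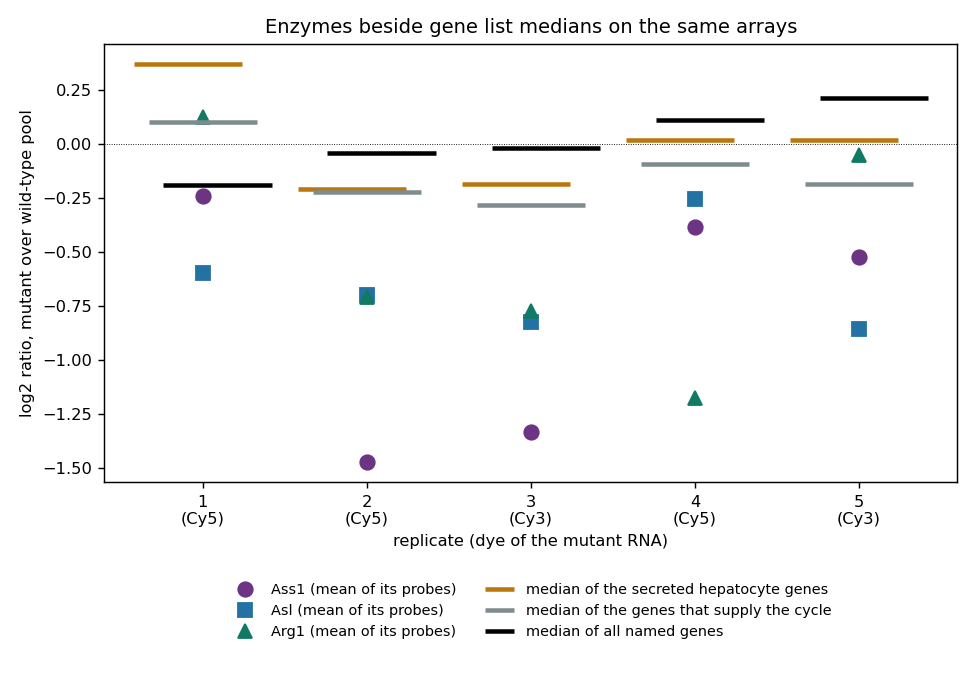
Log2 ratio of mutant over pool (vertical axis) on each array (horizontal axis, replicate and dye of the mutant RNA). Points are the probe means of Ass1, Asl and Arg1, and bars are medians of the secreted hepatocyte genes, of the genes that supply the cycle and of all named genes. The 3 enzymes lie under the hepatocyte median on each array, while on replicate 1 Arg1 lies above the median of all genes.

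Markers of 7 other cell types, 36 of 56 with a probe, had array medians of -0.17, -0.16, 0.31, -0.14 and 0.16 on replicates 1 to 5. Kupffer cell markers ran from -0.08 to 1.15 over the arrays, endothelial markers from -0.53 to 1.15 and stellate cell markers from -0.29 to 0.57. Bile duct markers ran from -1.03 to 1.32, erythroid markers from 0.14 to 0.69, kidney markers from -1.33 to 1.22 and pancreas markers from -3.29 to 0.27. Most of these medians rest on 5 genes or fewer. The part of other cells in the values of the enzymes was not tested.

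Genes that feed nitrogen and bicarbonate into the cycle, or carry its metabolites across the mitochondrial membrane, had coefficients from -0.86 to 0.29. Of the 15 listed, 12 had a probe and 11 were tested, with 9 coefficients below 0 and 2 above, a median of -0.26 and 0 passing in either direction. The 2 lowest were outside the fixed names and are given after their values were seen. Slc25a12, the other mitochondrial aspartate exchanger, had -0.86 ± 0.53 (SE, 5 arrays), farther from 0 than any enzyme, with arrays from -2.25 to 1.13. Gpt, alanine aminotransferase, had -0.59 ± 0.45, with -2.20 on replicate 4 and -0.66 to 0.18 on the others; it was -0.21 without replicate 4. Nags makes the activator that Cps1 needs, and had 0.14 ± 0.35 (SE, 5 arrays), from probes that differed. Probe 14229 lay between -0.40 and 0.55 on all 5 arrays. Probe 7219 had values on replicates 1, 4 and 5 only, at -0.671, 1.785 and -0.437. Car5a, the mitochondrial carbonic anhydrase, stood at 0.29 ± 0.28, also from probes that differed. Probe 9875, measured on all 5 arrays, had a coefficient of -0.10. Probe 20224 had values on replicates 4 and 5 only, at 1.375 and 1.587. Slc25a13, the exchanger that exports aspartate for Ass1, stood at -0.26 ± 0.31. Its array values were 0.77 on replicate 1 and -0.61 to -0.22 on the others. Glutamate dehydrogenase, Glud1, had -0.40 ± 0.44 from probes that disagreed. One of them (18222) lay between 0.09 and 0.41 on all 5 arrays, and the other (19876) ran from -3.37 to 1.01 on 4. The aspartate aminotransferases Got1 and Got2 had -0.20 ± 0.31 and -0.02 ± 0.28.

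Genes of other fates of arginine and ornithine, 8 of 15 with a probe, gave 5 tested coefficients, 1 below and 4 above 0, with a median of 0.27 and 0 passing. Oat, which turns ornithine toward glutamate, had 0.27 ± 0.40 (SE, 4 arrays). Its highest array was replicate 1 at 1.36, with -0.24 to 0.07 on the others. Odc1, the first enzyme of polyamine synthesis, had -0.42 ± 0.46, with arrays from -1.76 to 0.57. Nos2, the inducible nitric oxide synthase, is outside the fixed names and is given after its values were seen. It was above 0 on all 5 arrays, at 0.51, 0.15, 0.50, 0.92 and 1.24, with a coefficient of 0.70 ± 0.30 (SE) and an adjusted p of 0.998 from limma. Of 4545 genes measured on all 5 arrays, 160 were above 0 on all of them. Oat and Odc1 spread wider than their distance from 0, and Nos2 did not.

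Glutamine synthesis takes up the ammonia that escapes the cycle, in a rim of hepatocytes around the central vein. Of 6 genes listed for it and for its transporters, 5 were tested, with 4 coefficients above 0 and 1 below, a median of 0.56 and 0 passing. Slc38a5, a glutamine transporter, was the one at an unadjusted p under 0.05 and is named for that reason, after its values were seen. Its coefficient was 1.95 ± 0.72 (SE, 4 arrays), with array values of 0.03, 5.01, 1.38 and 1.36 on replicates 2 to 5. Glul, glutamine synthetase, had array values of -0.12, 0.22, 1.37, -0.53 and 1.54 on replicates 1 to 5, and a coefficient of 0.65 ± 0.28 (SE). Its probes 2516 and 19121 differed, with -0.68 and 1.12 on replicate 2 and 0.47 and 2.60 on replicate 5. Their coefficients were 0.31 and 1.02, and replicate 4 rests on probe 19121. Both high arrays of the Glul mean were those with the mutant in Cy3. The dye coefficient of that mean was -0.80 with an unadjusted p of 0.0323 in limma. Whether Glul and the cycle's enzymes differ in this respect was not tested.

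Known regulators of the cycle were measured thinly. Of 11 listed, 7 had a probe and 3 were tested, all with coefficients above 0 and 0 passing. The highest, Ppargc1a, is outside the fixed names and is given after its values were seen. Its coefficient was 0.60 ± 0.46 (SE, 5 arrays), with means of -0.79 with the mutant in Cy5 and 1.98 with it in Cy3. Gcgr, the glucagon receptor, had 0.02 ± 0.26 (SE, 5 arrays), with array values from -0.11 to 0.16. Hnf4a, a hepatocyte nuclear receptor, had values on 3 arrays between -1.80 and 2.14, all with the mutant in Cy5, from probes that disagreed. Probe 302 had -2.9 and -4.1 on replicates 1 and 2. Probe 18999 had 1.62, 0.51 and 2.14 on replicates 1, 2 and 4. Cebpa, a C/EBP transcription factor, and Nr3c1, the glucocorticoid receptor, each had values on 2 arrays, with opposite signs. Over the 4 lists around the cycle, 24 of 33 genes with a probe were tested, 11 below and 13 above 0, with a median of 0.05.

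**Figure D4:**
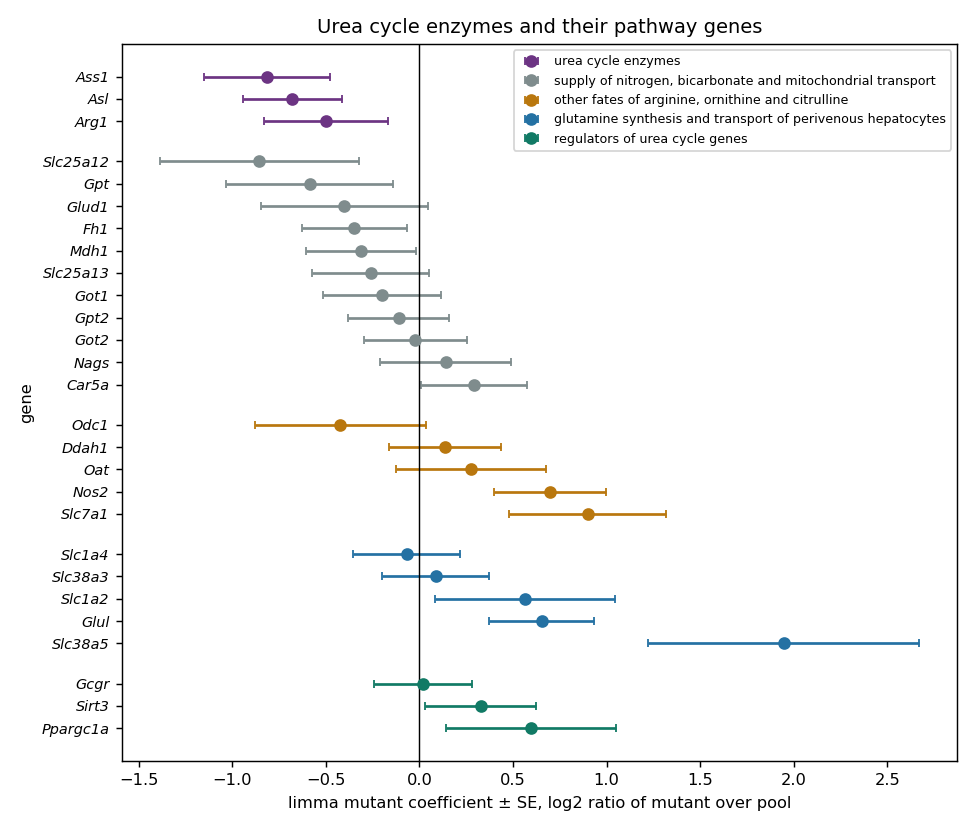
limma's mutant coefficient as log2 ratio of mutant over pool with its SE (horizontal axis) for the tested urea cycle enzymes and the tested genes of 4 lists around the cycle (vertical axis, 1 gene per line, colours by list). The enzymes lie between -0.82 and -0.50, and the other 24 genes lie on both sides of 0.

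Likeness to the enzymes was measured as the root mean square log2 difference over the 5 arrays from the median profile of Ass1, Asl and Arg1. That profile was -0.24, -0.71, -0.82, -0.39 and -0.53 on replicates 1 to 5. Among 4542 genes compared, Rps13, a ribosomal protein gene, was nearest at 0.16, followed by Sgta, a co-chaperone gene, at 0.16. Paics, an enzyme gene of purine synthesis, stood at 0.17. Nfkbiz, which encodes an atypical NF-kappa-B inhibitor, stood at 0.19, and Apom, an apolipoprotein gene of the liver, at 0.21. The median gene differed by 1.02. Among the genes of the pathway lists the nearest was Fh1, fumarase, which uses the fumarate that Asl makes, at 0.23 and rank 11. Rps13 and Nfkbiz have 2 probes each, averaged here, with values missing on some arrays. The ranking is a description over 5 arrays, and small differences are also favoured by profiles that stay near 0.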

How the data were processed

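The authors deposited log2 ratios, 1 column per array, the log base being read from the values; how the authors corrected background and normalized is not given in the sources used here. Identical values over 12 in absolute size, at an array constant plus or minus the log2 of 100000, were read as codes and set to missing. The code is negative on both arrays with the mutant in Cy3, so these were read as turned before deposit. Arrays were not centred. No column was left unused (0). Names came from the platform's annotation, with 14030 probes of 1 symbol, 5 of several and 6320 unnamed here. Probes of a gene were averaged.

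For each probe or gene measured on 4 or more arrays, with each dye orientation present, lmFit and eBayes of limma (3.58.1, under R 4.3.3) gave a mutant coefficient (intercept) and a dye term. The pool is 1 control sample, so the spread between wild-type animals is in no error given here. P-values were Benjamini-Hochberg adjusted over all probes or genes, at 0.05. The script was tested on simulated data. Members and gene lists were chosen with earlier results of these data known. Named were all probes of the enzymes, a fixed list of pathway genes, and the 5 genes of nearest profile. Slc25a12, Gpt, Nos2, Slc38a5, Ppargc1a and Fh1 were named after their values were seen. Alternatives were no dye term, centring, codes kept, 3 or 5 arrays required, simple ratios (within 0.001) left out, the median over probes and each replicate left out.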

Additional observations from a re-analysis of the deposited data

Results flagged for a closer look

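Slc25a13, the aspartate exporter of the mitochondria, had 1 array far from the rest: its log2 ratio was 0.77 on replicate 1, against -0.61 to -0.22 on the other 4. Of 17 sets of 4 or 5 array values checked in this way for the enzymes and named pathway genes, it was the only one, and chance sets apart about 1 in 20. Secreted hepatocyte genes also had their highest median, 0.37, on replicate 1, and the part of that array in the value was not tested.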

How the results depend on the processing

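The coefficients of Ass1, Asl and Arg1 stayed below 0 and uncalled under all 41 alternative values. Leaving out 1 replicate moved them from -1.02 to -0.61 for Ass1, from -0.74 to -0.63 for Asl and from -0.68 to -0.32 for Arg1, the last without replicate 3. Other settings gave -2.16 to -0.59, -0.72 to -0.65 and -0.54 to -0.48. The order of Ass1 and Asl was not stable: Asl was farther from 0 with the median over probes, with only probes measured on all 5 arrays and without replicate 2 or 3. Adjusted p from limma lay between 0.789 and 0.999. Asl could not be fitted without simple ratios. Calls stayed at 0 for probes, genes and the dye coefficient. At an unadjusted p under 0.05 in limma there were 444 of 7180 genes tested without replicate 1, against 264 of 6706 with all arrays. With only probes measured on all 5 arrays there were 172 of 4045 genes. For probes these counts were 796 of 12604 without replicate 1, against 470 of 11300. They were 242 of 6364 with 5 arrays required and 271 of 6587 without simple ratios. The numbers tested differ between settings, so a lower count alone shows no lower share.

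Of 191 alternative values of the pathway genes, 14 changed sign; none was called. Leaving out 1 replicate gave -0.0776 to 0.330 for Nags, -0.115 to 0.0468 for Got2, -0.0915 to 0.638 for Oat, -1.01 to 0.16 for Odc1 and -0.0407 to 0.0803 for Gcgr. Without a change of sign it gave -0.69 to -0.11 for Glud1, -0.37 to -0.07 for Got1, -0.45 to -0.14 for Slc25a13, -1.34 to -0.37 for Slc25a12, -0.81 to -0.21 for Gpt, 0.51 to 0.88 for Nos2 and 1.03 to 2.86 for Slc38a5. Nags had -0.0492 without simple ratios, Got2 0.0120 without the dye term and Gcgr -0.0186 with centred arrays. With only probes measured on all 5 arrays, Car5a had -0.10 and Glud1 0.27. The cause was not tested. Each ratio sets a mutant animal against the pool within an array. Pairing mutant with single wild-type animals was not possible, because all samples belong to 1 group.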
